A study of Mus musculus with 6 samples.

Results

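The transcription factor p53 is held at a low level in unstressed cells by the ubiquitin ligase MDM2, and DNA damage and other stresses stabilise it. It then switches on genes that stop the cell cycle, repair DNA, adjust metabolism, feed back on p53 itself or prepare cell death. In the testis p53 is known above all for the removal of damaged germ cells. Described here are 31 direct p53 targets outside the BCL2 family, chosen by name with earlier results of these data known. All 31 were found among the 32285 genes of a raw count table. They fall into 10 genes of growth control and p53 feedback, 3 of the spindle and the G2/M phase, 5 of DNA repair and nucleotide supply, 5 of metabolism and autophagy, 5 of the cell death machinery and 3 receptors grouped here as death receptors.

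RNA was sequenced from GS cells, cultures of mouse testis germ cells with the properties of spermatogonial stem cells. Per the labels, both groups carried loxP-flanked (floxed) alleles of Cdkn1c, the gene of the cyclin-dependent kinase inhibitor p57. There were 3 libraries of cells with Cre recombinase (p57 KO, genotype p57 flox/flox-Cre) and 3 of cells with the floxed alleles (control, genotype p57 flox/flox). Cre came from an adenovirus, and RNA was extracted on day 2 of infection from cells freed with trypsin and purified on a Sephadex column. The sources used here give neither the promoter of Cre nor whether an empty virus was applied to the control cells. The labels disagree on the age and strain of the mice, which is why neither is given. Nor do they state that replicates came from separate cultures. The p-values thus rest on the spread among these libraries, and that spread may be technical.

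Total counts were 15662833 to 17893671 per library, and 14814 genes passed the filter on low counts and were tested with edgeR's quasi-likelihood test, among them all 31 p53 targets. Levels are in CPM, counts divided by the library's TMM-scaled total, and fold changes are log2, p57 KO over control, with their standard error (SE). A gene is said to have risen or fallen when its p, adjusted by Benjamini-Hochberg over the 14814 genes, was under 0.05. Cdkn1c itself had 8.71, 9.44 and 8.51 CPM in the p57 KO libraries, against 20.9, 21.4 and 19.9 CPM in the control libraries, and fell (log2 fold change -1.22, SE 0.09, edgeR adjusted p = 4.07e-09). Which part of the gene Cre removes is not given. Markers of undifferentiated spermatogonia such as Ddx4 and Dazl were well expressed, with 3840.2 to 4067 CPM over 12 genes in p57 KO and 4470 to 4596 CPM in control. Dazl was among the 10 of the 12 that fell, and Ddx4 and Uchl1 did not pass. Among the Leydig, macrophage and Sertoli cell markers 5 of 6, 3 of 6 and 3 of 6 had at most 6 counts in any library. The Sertoli cell marker Sox9 had 15.2 to 20.1 CPM in p57 KO and 15.7 to 19.2 CPM in control. Wt1, another, had 6.78 to 9.5 CPM in p57 KO and 8.69 to 11.1 CPM in control, and neither passed. The macrophage markers Cd68 and Lyz2 (2 of 3 tested) rose, while Mrc1 fell. Of 4 tested endothelial markers 1 rose and 2 fell, and of 6 markers of differentiating spermatogonia 2 rose and 2 fell. The fibroblast and feeder cell markers set the libraries apart: 20 such genes summed to 1450, 1949.9 and 2886 CPM in p57 KO replicates 1, 2 and 3 and to 922, 1185 and 955 CPM in control replicates 1, 2 and 3. Of the 20, 17 were higher in every p57 KO library than in any control library and 5 rose. Over all tested genes those shares were 19.5% and 11.6%, and 11.6% fell. In such bulk samples a change in the number of cells of a type and a change in RNA per cell cannot be told apart.

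The p53 targets were higher in p57 KO as a group. Of the 31, 25 rose and 0 fell in edgeR's quasi-likelihood test, where 11.6% of all tested genes rose and 11.6% fell. At an unadjusted p under 0.05 the number that were lower was also 0, as was the number that fell in DESeq2 and in limma-voom. The median log2 fold change was 0.38 over the 31 targets, beside -0.0019 over all tested genes. In 27 targets every p57 KO library lay above every control library, as in 19.5% of all tested genes. The 6 targets that did not pass were Xpc, Rrm2b, Tigar, Ephx1, Dram1 and Pidd1. Most rises were small: 12 of the 31 passed a test against a fold of 1.2 (2.79% of all tested genes), and 5 rose at least 2-fold (2.68% of all tested genes), namely Perp, Fas, Gdf15, Dcxr and Plk2. At least 200 counts in a library of each group were reached by 26 of the 31, the exceptions being Gdf15, Dcxr, Dram1, Perp and Fas.

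**Figure D1:**
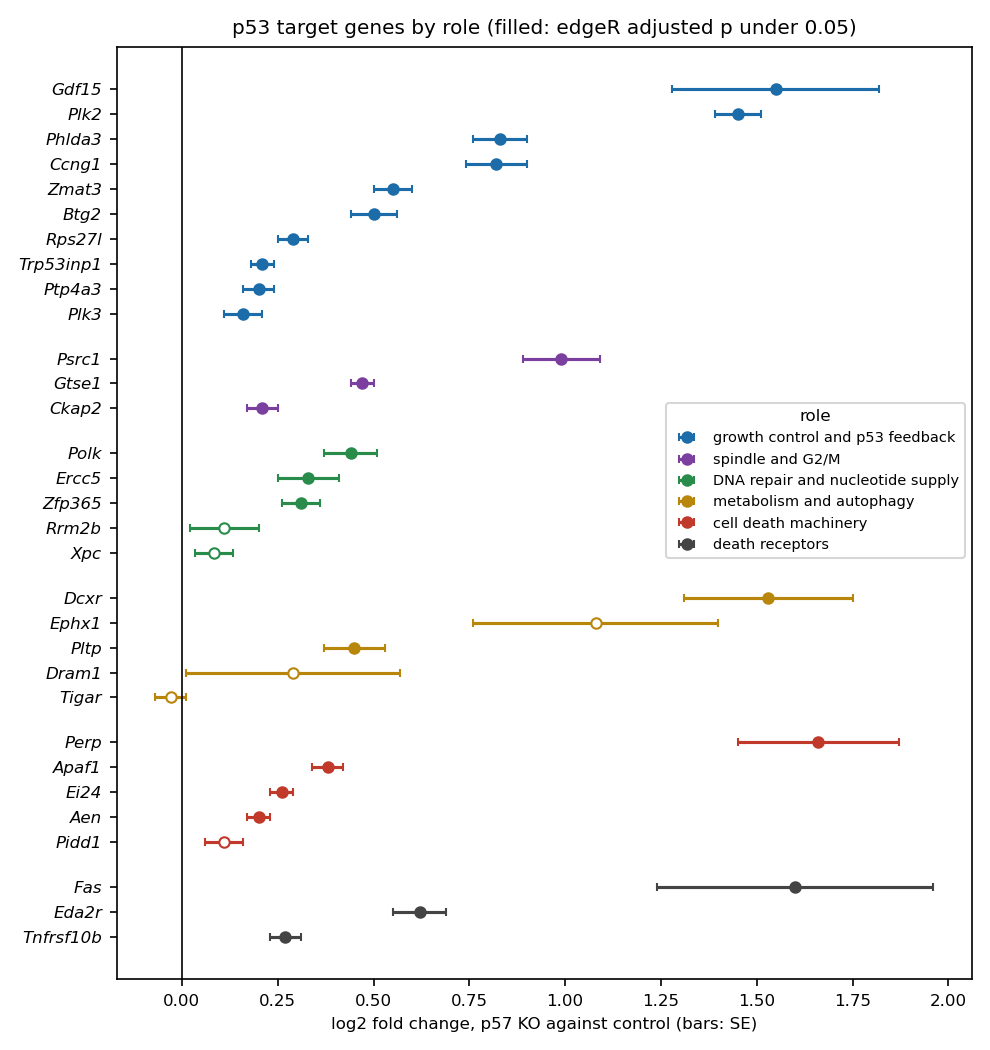
Log2 fold change (x axis, p57 KO against control) of the 31 p53 targets, grouped by role, with bars for the SE. Filled points mark the 25 targets that rose and open points the 6 that did not pass. The values run from -0.029 for Tigar to 1.66 for Perp.

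The higher levels were seen in each p57 KO library. Relative to the mean of the control libraries, the median target stood at 0.36, 0.36 and 0.46 log2 in p57 KO replicates 1, 2 and 3, and at -0.062, 0.035 and 0.014 in control replicates 1, 2 and 3. In each p57 KO library 30 of the 31 targets were above the control mean. Replicate 3 was the highest p57 KO library for 17 targets, and control replicate 1 was the lowest control library for 20. The same counts by library were not made over all tested genes. Whether they are particular to the targets is therefore not known.

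**Figure D2:**
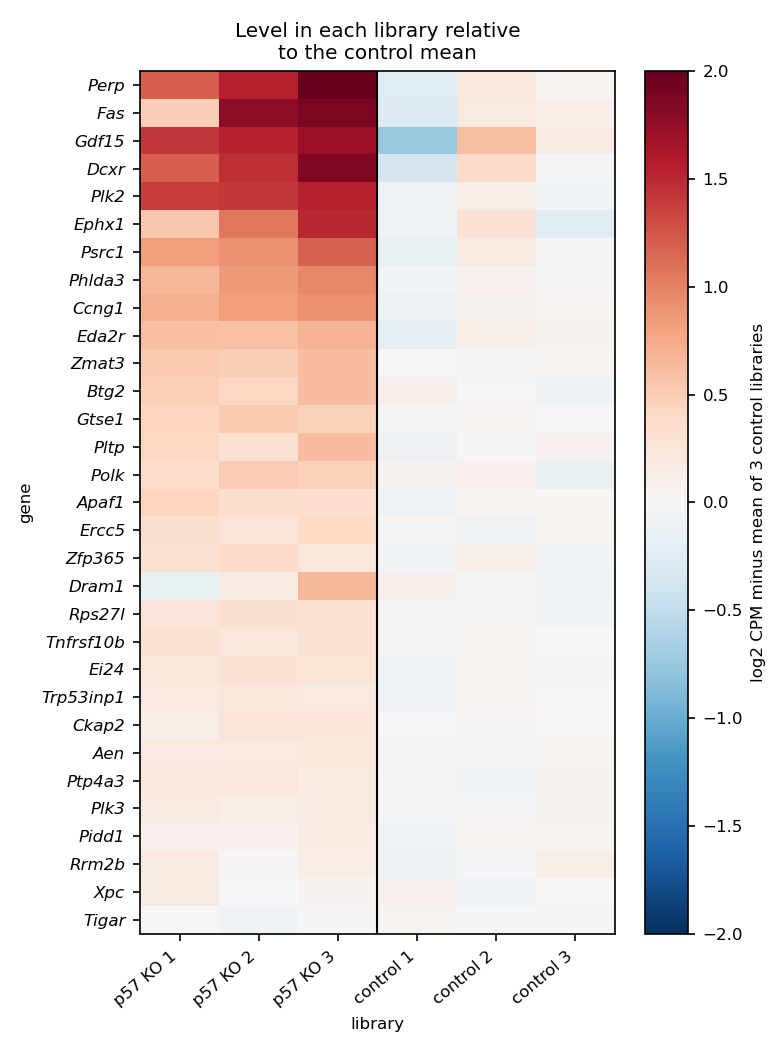
Level of each p53 target (rows, ordered by fold change) in each library (columns, p57 KO left of the line), as log2 CPM minus the mean of the 3 control libraries. Colours stop at a difference of 2 either way. The p57 KO columns are on the red side of the scale for nearly all rows, but pale in many of the lower rows. In the upper rows replicate 3 is mostly the darkest.

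The members lie on 15 chromosomes, and the promoter sequences of 24 of them were at hand from RefSeq (GRCm38.p6, the assembly also called mm10), from 250 bases before to 50 after each annotated start. These were searched for the p53 half-site consensus and for a full site, meaning a pair of half-sites with at most 1 base between them, the core of each intact and at most 3 mismatches in all. The consensus reads the same on both strands, and a full site can overlap a match of the half-site consensus. A full site was found in 7 of 30 promoters of the targets, which belong to 6 genes, and in 1.07% of all 32544 promoters. Aen counts with both of its promoters, whose windows overlap and share the site. The genes were picked as known p53 targets, so a higher share of p53 sites may follow from that choice. It is not a result about these libraries. The half-site consensus, counted with or without a full site, was in 8 of 30 promoters, beside 8.36% of all promoters. For comparison TTTGAA, a cell cycle promoter element, was in 5 of 30 beside 17.8%, CCAAT in 17 of 30 beside 37.4%, and TATAAA in 4 of 30 beside 13.6%, each on both strands. A match is a description of the letters, not a sign of binding in these cells.

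The 6 full-site matches are shown because they resemble the known full binding sequence of p53, 5′ to 3′ on the strand of the gene, with the 20 bases of the match in capitals and 5 bases on each side. The Rps27l match lies in an intron (chr9:66946291-66946320, plus strand) and has 1 mismatch. The Gtse1 match lies in an exon, in the UTR (chr15:85859940-85859969, plus strand), and also has 1 mismatch. The Zfp365 match begins 63 bases upstream of the gene (chr10:67912701-67912730, minus strand) and the Ckap2 match 203 bases upstream (chr8:22185998-22186027, minus strand), with 2 mismatches each. The Aen match lies in an exon, in the UTR (chr7:78895932-78895961, plus strand), and the Tigar match begins 208 bases upstream (chr6:127109741-127109770, minus strand), with 3 mismatches each.
Rps27l: atggcGGGCTTGTTGAGACTTGTCCgggcg
Gtse1: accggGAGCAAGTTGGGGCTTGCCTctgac
Zfp365: tagcaAGACTAGGCTGGGCAAGACTggcac
Ckap2: tctgaAGACATGTCCTGACTTGTCAagcct
Aen: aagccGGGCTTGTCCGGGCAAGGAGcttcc
Tigar: gcggcGGTCTAGCTCTGGCAAGACTccagg
All of these but Tigar rose, with log2 fold changes of 0.47 for Gtse1, 0.31 for Zfp365, 0.29 for Rps27l, 0.21 for Ckap2 and 0.20 for Aen. Tigar had -0.029. The members with the largest rises (Perp, Fas, Gdf15, Dcxr and Plk2) are not among them: Fas, Gdf15, Dcxr and Plk2 had no full site in the window searched, and Perp had no promoter in the table. For the upstream matches the sequence around the site is given for the pair that rose, as the 250 bases before the start on the minus strand, Zfp365 at chr10:67912663-67912912 and Ckap2 at chr8:22185820-22186069, with the match in capitals.
Zfp365: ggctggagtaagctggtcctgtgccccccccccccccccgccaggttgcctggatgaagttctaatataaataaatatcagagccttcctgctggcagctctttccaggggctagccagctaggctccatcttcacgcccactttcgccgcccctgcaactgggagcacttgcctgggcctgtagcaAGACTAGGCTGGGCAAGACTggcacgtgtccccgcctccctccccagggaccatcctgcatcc
Ckap2: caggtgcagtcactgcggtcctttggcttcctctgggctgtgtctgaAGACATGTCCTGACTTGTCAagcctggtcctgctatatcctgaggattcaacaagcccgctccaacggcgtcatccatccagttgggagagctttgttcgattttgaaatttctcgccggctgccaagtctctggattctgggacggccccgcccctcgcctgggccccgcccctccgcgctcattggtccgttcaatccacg

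All 10 genes of growth control and p53 feedback rose in edgeR's test, with a median log2 fold change of 0.53 and a range from 0.16 to 1.55, and in each of them the groups did not overlap. Plk2, which encodes a polo-like kinase induced by stress, had the largest rise among targets above 20 CPM. It lies on chromosome 13 (chr13:110395046-110400844, plus strand, GENCODE M21) and had 155, 157 and 172 CPM in p57 KO, against 56.2, 64.4 and 57.01 CPM in control. The p57 KO values were close together and far above the control values (log2 fold change 1.45, SE 0.06, edgeR adjusted p = 6.96e-09). Ccng1 (chr11:40748552-40755311, minus strand), the gene of cyclin G1, which acts with a phosphatase on MDM2, had 393, 430.0 and 451 CPM in p57 KO and 221, 254 and 247 CPM in control. It was one of the most abundant targets and rose by 0.82 (SE 0.08, edgeR adjusted p = 0.002). Phlda3 (chr1:135766119-135769136, plus strand), whose protein blocks membrane recruitment of the survival kinase AKT, had 50.9, 58.2 and 63.0 CPM in p57 KO and 30.8, 34.3 and 31.6 CPM in control. It rose by 0.83 on the log2 scale (SE 0.07, edgeR adjusted p = 1.85e-06).

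Zmat3 (chr3:32334792-32366014, minus strand), an RNA-binding protein gene that controls splicing and RNA stability, had 67.0, 64.9 and 71.4 CPM in p57 KO and 46.4, 45.1 and 47.6 CPM in control. The spread within each group was small beside the difference (log2 fold change 0.55, SE 0.05, edgeR adjusted p = 6.38e-08). Btg2, an antiproliferative gene whose product recruits the deadenylase that shortens mRNA tails, had 127, 123 and 141 CPM in p57 KO and 98.2, 91.7 and 85.6 CPM in control (log2 fold change 0.50, SE 0.06, edgeR adjusted p = 0.00045). The other well expressed members of this role moved less. Rps27l, a paralogue of a ribosomal protein gene, had 104, 110.3 and 108 CPM in p57 KO and 89.7, 89.5 and 84.5 CPM in control, a log2 fold change of 0.29. Reads of Rps27l could be shared with its paralogue Rps27, since how reads with several matches were counted is not given. Trp53inp1, whose product enhances the activating phosphorylation of p53, had 0.21, and Ptp4a3, which encodes a tyrosine phosphatase, had 0.20.

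Plk3, a second polo-like kinase of the stress response, had 67.3, 65.0 and 67.2 CPM in p57 KO and 58.1, 58.1 and 62.8 CPM in control. Its rise was the smallest of the role and did not hold throughout: it was 0.16 on the log2 scale (SE 0.05, edgeR adjusted p = 0.0141), and the adjusted p was 0.0748 without control replicate 1, 0.0732 without control replicate 2 and 0.0707 in DESeq2. Part of Plk3 overlaps an exon of Tctex1d4 on the other strand. Gdf15, a secreted stress cytokine of the TGF-beta family, was at the low end of the range, with 46, 52 and 64 counts in the p57 KO libraries and 9, 27 and 18 in the control libraries. That is 2.90, 3.17 and 3.58 CPM in p57 KO and 0.546, 1.59 and 1.15 CPM in control, a log2 change of 1.55 (SE 0.27, edgeR adjusted p = 0.000304). Plk2, Plk3 and Btg2 are also known as immediate early genes, and Gdf15 as a gene of the integrated stress response. Among 15 other immediate early genes 8 rose and 2 fell (median log2 fold change 0.50), with Atf3 at 2.37, Jun at 1.74 and Egr3 at -0.47. Among 12 genes of the integrated stress response 6 rose and 0 fell (median 0.54), with Ddit3 and Cebpb at 0.83. When the mean level of those 20 fibroblast markers in log2 CPM (the fibroblast score) was added to edgeR's model, 5 of the 15 immediate early genes rose and 1 fell. In that model 0 of the 12 stress response genes rose (3 were higher at an unadjusted p under 0.05), with Ddit3 at 0.69 (edgeR adjusted p = 0.0849) and Cebpb at 0.18 (0.774). The part of these programmes in the rises of Plk2, Plk3, Btg2 and Gdf15 was not tested.

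**Figure D3:**
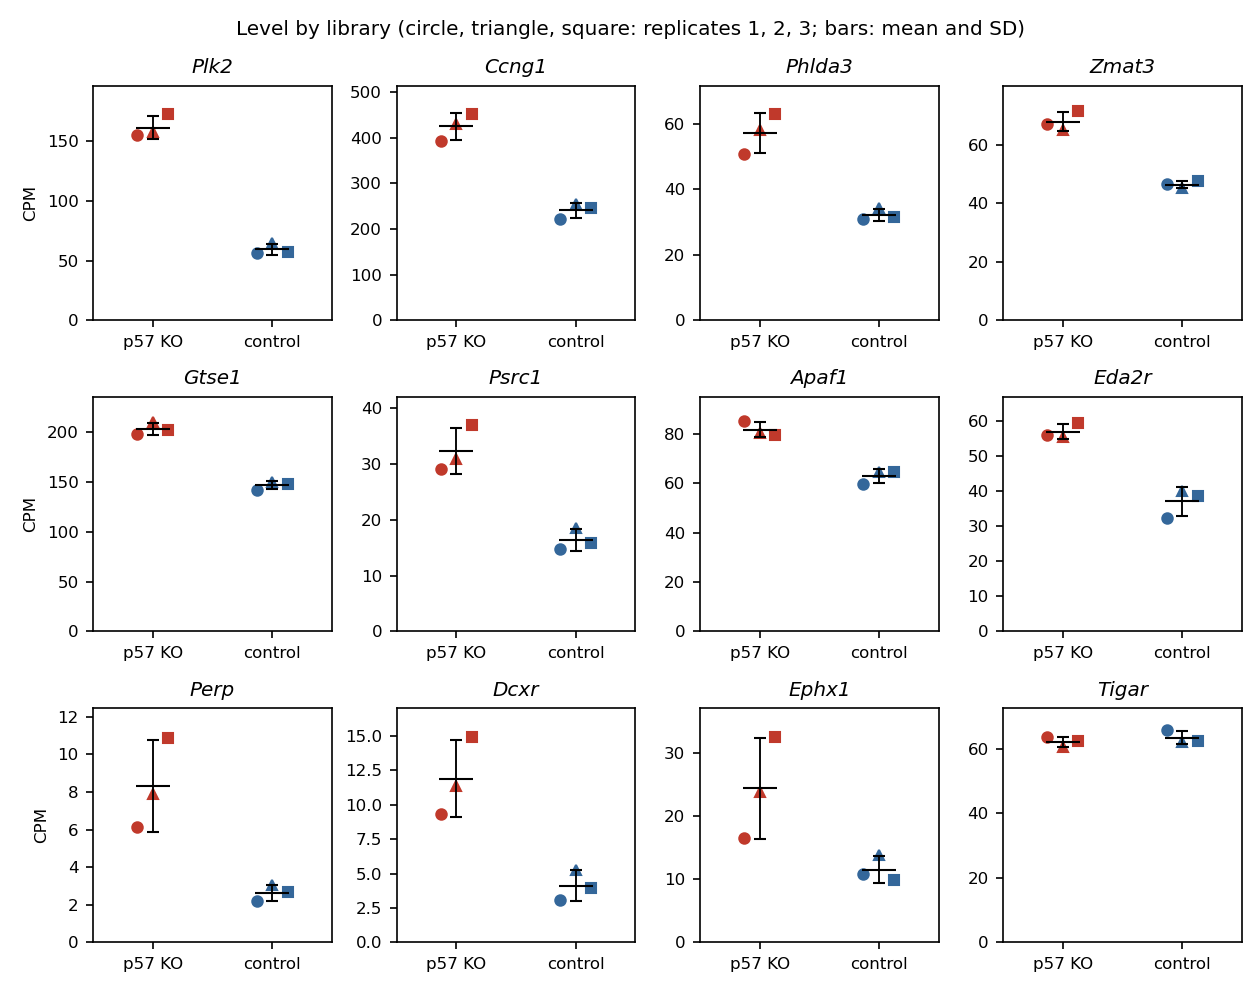
CPM of 12 p53 targets in each library (y axes start at 0), p57 KO left and control right, with symbols for replicates 1, 2 and 3 and bars for mean and SD. Plk2 has 155 to 172 CPM in p57 KO and 56.2 to 64.4 CPM in control. Perp, Dcxr and Ephx1 spread widely among the p57 KO libraries, and Tigar overlaps between the groups.

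The 3 genes of the spindle and the G2/M phase rose. Gtse1 (chr15:85859745-85876573, plus strand), which encodes a microtubule-binding protein that carries p53 out of the nucleus in G2, had 198, 210.3 and 202 CPM in p57 KO and 142, 150.2 and 148 CPM in control. Its groups were far apart for their spread (log2 fold change 0.47, SE 0.03, edgeR adjusted p = 1.99e-09), the smallest adjusted p among the 31. Psrc1 (chr3:108383839-108388231, plus strand), a gene of spindle dynamics, had 29.2, 30.99 and 37.1 CPM in p57 KO and 14.7, 18.5 and 15.9 CPM in control (log2 fold change 0.99, SE 0.10, edgeR adjusted p = 2e-05). Ckap2, which encodes another spindle protein, had 126, 138 and 137 CPM in p57 KO and 114, 117 and 114 CPM in control, a log2 fold change of 0.21. Of 14 general G2/M genes 5 rose and 0 fell, and their median log2 fold change was 0.14. The largest of those rises was that of Plk1 with 0.24, so that Gtse1 and Psrc1 had larger log2 fold changes than the G2/M genes that rose and Ckap2 had one of their size. In the model with that fibroblast score, 0 of the 14 rose (1 was higher at an unadjusted p under 0.05), Ccnb1 fell (-0.28, edgeR adjusted p = 0.029), Plk1 had 0.0056 and the median of the 14 was -0.016. Gtse1 (0.42) and Psrc1 (0.57) rose in that model too, and Ckap2 did not pass (0.089, edgeR adjusted p = 0.595). Differences between these genes were not tested.

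Of the 5 genes of DNA repair and nucleotide supply, 3 rose in edgeR's test, and the range was narrow, from 0.084 to 0.44. Polk, the gene of a polymerase that copies past damaged bases, had 29.7, 33.0 and 31.9 CPM in p57 KO and 24.4, 24.5 and 20.8 CPM in control (log2 fold change 0.44, SE 0.07, edgeR adjusted p = 0.000136). Ercc5, which encodes the XPG nuclease of nucleotide excision repair, had 20.6, 19.9 and 21.8 CPM in p57 KO and 16.9, 15.7 and 17.2 CPM in control, a log2 fold change of 0.33. Zfp365, whose human counterpart guards genome stability, had 66.0, 69.6 and 62.4 CPM in p57 KO and 51.0, 57.6 and 51.4 CPM in control, a log2 fold change of 0.31. These rises left no overlap between the groups, unlike the other pair of repair genes. Xpc, which encodes the damage sensor of excision repair, had 107, 94.7 and 99.1 CPM in p57 KO and 100.2, 89.3 and 94.0 CPM in control (log2 fold change 0.084, SE 0.05, edgeR adjusted p = 0.235). Rrm2b, the gene of the p53-inducible ribonucleotide reductase subunit, had 16.6, 15.1 and 16.3 CPM in p57 KO and 13.8, 14.6 and 16.1 CPM in control (0.11, SE 0.09, edgeR adjusted p = 0.401). Rrm2b overlaps Gm49085 on the other strand over 734 bases, so its counts are uncertain.

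The 5 genes of metabolism and autophagy were the least uniform: 2 rose and 3 did not pass. Dcxr (chr11:120725399-120727281, minus strand), which encodes a carbonyl and xylulose reductase, had 9.34, 11.4 and 14.9 CPM in p57 KO and 3.09, 5.30 and 3.96 CPM in control (log2 fold change 1.53, SE 0.22, edgeR adjusted p = 0.00131). Pltp, a phospholipid transfer protein gene, had 29.3, 27.3 and 33.9 CPM in p57 KO and 20.4, 22.4 and 23.5 CPM in control, a log2 fold change of 0.45. Its exons overlap those of Ctsa on the other strand over 495 bases, so its counts are uncertain. Ephx1, the gene of a detoxifying epoxide hydrolase, had 16.6, 23.9 and 32.6 CPM in p57 KO and 10.9, 13.9 and 9.84 CPM in control. The groups did not overlap, but the p57 KO libraries differed about as much from each other as from control, and the log2 fold change of 1.08 did not pass (SE 0.32, edgeR adjusted p = 0.089). It passed in DESeq2 (adjusted p = 0.00775) and in edgeR without p57 KO replicate 1 (0.006) or replicate 3 (0.0462).

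Tigar, whose enzyme lowers fructose-2,6-bisphosphate and so slows glycolysis, had 63.6, 60.6 and 62.3 CPM in p57 KO and 65.7, 62.1 and 62.4 CPM in control. It was the only one of the 31 with a negative log2 fold change (-0.029, SE 0.04, edgeR adjusted p = 0.679), and it had 976 to 1112 counts in every library. An exon of Platr31 on the other strand overlaps part of Tigar. Dram1, a gene of lysosomal autophagy, had only 19 to 39 counts per p57 KO library and 20 to 24 per control library (log2 fold change 0.29, SE 0.28, edgeR adjusted p = 0.486). The log2 fold change was 0.02 without p57 KO replicate 3.

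Of the 5 genes of the cell death machinery 4 rose. Perp (chr10:18845020-18857073, plus strand), whose membrane protein serves desmosomes and p53-dependent apoptosis, had the largest log2 fold change of the 31, from few counts. It had 6.12, 7.91 and 10.9 CPM in p57 KO and 2.18, 3.06 and 2.68 CPM in control (1.66, SE 0.21, edgeR adjusted p = 6.74e-05). Apaf1 (chr10:90989311-91082770, minus strand), the scaffold of the apoptosome that activates caspase-9, had 85.0, 80.5 and 79.6 CPM in p57 KO and 59.6, 64.4 and 64.7 CPM in control. Its groups were well separated (log2 fold change 0.38, SE 0.04, edgeR adjusted p = 2.71e-06). Ei24, which encodes an endoplasmic reticulum protein of autophagy, had 168, 174 and 172 CPM in p57 KO and 136, 147 and 146 CPM in control, a log2 fold change of 0.26. Its exons overlap those of Gm26787 on the other strand. Aen, a p53-induced nuclease gene, had 135, 134 and 137 CPM in p57 KO and 115, 116 and 122 CPM in control, a log2 fold change of 0.20. Pidd1, the scaffold that activates caspase-2, had 42.4, 42.4 and 43.9 CPM in p57 KO and 37.6, 40.7 and 41.2 CPM in control. These did not overlap, but the log2 fold change of 0.11 did not pass (SE 0.05, edgeR adjusted p = 0.161).

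All 3 receptors grouped here as death receptors rose in edgeR's test. Eda2r (chrX:97333840-97377216, minus strand), the receptor of ectodysplasin A2, had 56.0, 55.3 and 59.3 CPM in p57 KO and 32.2, 40.1 and 38.6 CPM in control (log2 fold change 0.62, SE 0.07, edgeR adjusted p = 1.12e-05). Tnfrsf10b (chr14:69767472-69784411, plus strand), the TRAIL receptor, had 114, 108 and 112 CPM in p57 KO and 90.5, 94.9 and 91.3 CPM in control (0.27, SE 0.04, edgeR adjusted p = 1.57e-05). In both the difference between the groups was larger than the spread within them, although the control values of Eda2r varied more (CV 11.4%) than those of Tnfrsf10b (CV 2.52%). Fas (chr19:34290666-34327772, plus strand), the receptor of FAS ligand, had 26, 69 and 80 counts in the p57 KO libraries and 15, 22 and 19 in the control libraries. In CPM these are 1.64, 4.20 and 4.48 in p57 KO and 0.910, 1.29 and 1.21 in control, and p57 KO replicate 1 lay nearer to control than to the other p57 KO libraries. The rise was 1.60 on the log2 scale (SE 0.36, edgeR adjusted p = 0.00873), and the call was lost without control replicate 1 (adjusted p = 0.0601), without control replicate 3 (0.0609) and in limma-voom (0.0722).

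Set on a scale of CPM per kilobase of exon, the control level of the targets spanned from 108 for Rps27l, 68.5 for Ccng1 and 53.6 for Gtse1 to 0.591 for Gdf15, 0.553 for Fas and 0.441 for Dram1. The targets with the largest log2 fold changes were mostly among the low ones: Perp was at 4.26 in p57 KO and 1.35 in control, Dcxr at 10.4 in p57 KO and 3.60 in control, Gdf15 at 1.74 in p57 KO and 0.591 in control, and Fas at 1.67 in p57 KO and 0.553 in control. Plk2 was the exception among the 5 that rose at least 2-fold, with 35.9 in p57 KO and 13.2 in control on this scale.

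The fibroblast and feeder cell markers moved with part of this pattern. Their mean log2 CPM, the fibroblast score, was 4.41, 5.04 and 5.58 in p57 KO replicates 1, 2 and 3 and 3.53, 4.12 and 3.59 in control replicates 1, 2 and 3. In 10 of the 31 targets the p57 KO libraries ranked as the score did (Ccng1, Plk2, Phlda3, Gdf15, Psrc1, Dcxr, Ephx1, Dram1, Perp and Fas), as in 19.9% of all tested genes. With the score as a covariate 11 of the 31 rose, beside 1.65% of all tested genes (1.09% fell), and the median log2 fold change was 0.28. These 11 were Ccng1, Btg2, Plk2, Zmat3, Phlda3, Ptp4a3, Gtse1, Psrc1, Apaf1, Tnfrsf10b and Eda2r. At an unadjusted p under 0.05 in edgeR, 23 of the 31 were higher in that model and 0 lower. The log2 fold change was smaller than without the score in 25 of the 31. Neither count was made over all tested genes, so whether they are particular to the targets is not known. Some calls were lost with a larger SE and little change in size, as for Zfp365 (0.31, SE 0.05 without the score, 0.29, SE 0.09 with it). With the score Plk2 had 1.24 (SE 0.07, edgeR adjusted p = 3.44e-18), Ccng1 0.59, Gtse1 0.42 and Apaf1 0.43. Without it Plk2 had a larger log2 fold change (1.45, SE 0.06) and a larger edgeR adjusted p (6.96e-09). The smaller p with the score is thus no sign of a firmer rise. The log2 fold change moved most for Fas, which then had 0.24 (edgeR adjusted p = 0.883), Ephx1 with 0.0092 (0.991), Perp with 0.73 (0.148), Dcxr with 0.69 (0.0867), Dram1 with -0.43 (0.789) and Gdf15 with 0.99 (0.268). Apart from Ephx1 these were the 5 targets with the fewest counts. The score rests on 6 libraries and differs between the groups, so that the effects of group and score cannot be fully told apart in this model.

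**Figure D4:**
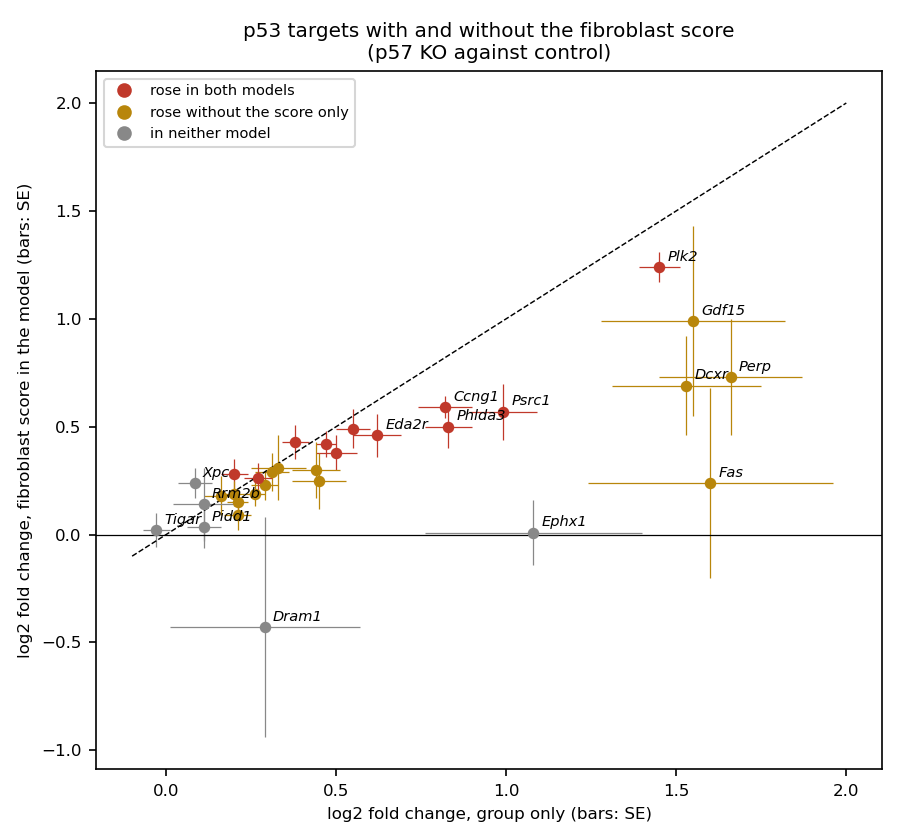
Log2 fold change (p57 KO against control) of the 31 p53 targets with the group alone (x axis) and with the fibroblast score in the model (y axis), with bars for the SE and a dashed line of equal values. Plk2 lies below the line, at 1.45 and 1.24, and Fas (1.60 and 0.24) and Ephx1 (1.08 and 0.0092) lie much farther below it.

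The libraries nearest in the score were p57 KO replicate 1 with 4.41 and control replicate 2 with 4.12. Between them 30 of the 31 targets were higher in p57 KO, with a median log2 difference of 0.28, whereas 50.7% of all tested genes were higher and their median was 0.0027. Plk2 had 155 CPM in p57 KO replicate 1 and 64.4 CPM in control replicate 2, and Ccng1 had 393 CPM in p57 KO replicate 1 and 254 CPM in control replicate 2. This is a description of a pair of libraries, with no test.

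Other genes of the pathway were read from lists of targets and regulators. Of 19 tested further p53 targets, 12 rose and 0 fell, and their median log2 fold change was 0.42. Gadd45b (1.79), Lif (1.72), Cdkn1a (1.27), Bbc3 (1.22) and Ddit4 (1.07) had the largest log2 fold changes, and Tap1 (0.77), Gadd45a (0.73), Sesn2 (0.66), Pml (0.58), Pmaip1 (0.42), Sfn (0.41) and Bax (0.35) also rose. The 7 that did not pass included the repair genes Ddb2 (0.037) and Mgmt (-0.10) and the sestrin gene Sesn1 (-0.10). In the model with the fibroblast score 8 of the 19 rose, and Mgmt (0.13), Fbxw7 (0.069) and Pml (-0.055) changed sign. Lif (0.61, edgeR adjusted p = 0.155), Gadd45a (0.25, 0.437), Sfn (0.22, 0.79) and Pml (0.943) did not pass in that model. Without the score Sfn had an adjusted p of 0.0485 in edgeR, and lost its call in DESeq2 (0.196) and with no filter on low counts (0.0597). Lif lost its call in limma-voom (0.0624), and both did so in 4 of the 6 edgeR fits that left out a library. The part of the immediate early and integrated stress response programmes in the rises of these further targets was not tested.

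Of 20 members of the p53 family and its regulators, 3 rose and 3 fell, and the median log2 fold change was -0.0082. Trp53, the gene of p53, had 139 ± 5.52 CPM in p57 KO and 145 ± 3.71 CPM in control (SD, n = 3 each), a log2 change of -0.058 (edgeR adjusted p = 0.252). Mdm2, itself a p53 target, had 335, 357 and 373 CPM in p57 KO and 244, 274 and 263 CPM in control (0.45, SE 0.05, edgeR adjusted p = 0.000527). Cdkn2a, the locus of the p53 activator ARF, had 0.33, and Ppm1d, the gene of a phosphatase that turns p53 signalling down and is another target, had 0.13. None of the tested kinase genes upstream of p53 rose: Atm had -0.025, Atr -0.054 and Chek2 -0.036, none of which passed, and Chek1 fell (-0.16), while with the fibroblast score Atm (0.06), Atr (0.031) and Chek2 (0.036) changed sign. Crebbp, a gene of a p53 acetyltransferase, had -0.10, and Trp63 had -0.76 from 36 to 49 counts per p57 KO library and 68 to 80 per control library. In fits that left out a library Ppm1d and Chek1 lost their calls in 3 of 6, Cdkn2a in 2 of 6 and Crebbp in 4 of 6. With the fibroblast score in the model Mdm2 was the only one of the 20 that passed (0.26, edgeR adjusted p = 0.00224), and 9 of the 20, with Cdkn2a and Crebbp among them, changed sign.

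**Figure D5:**
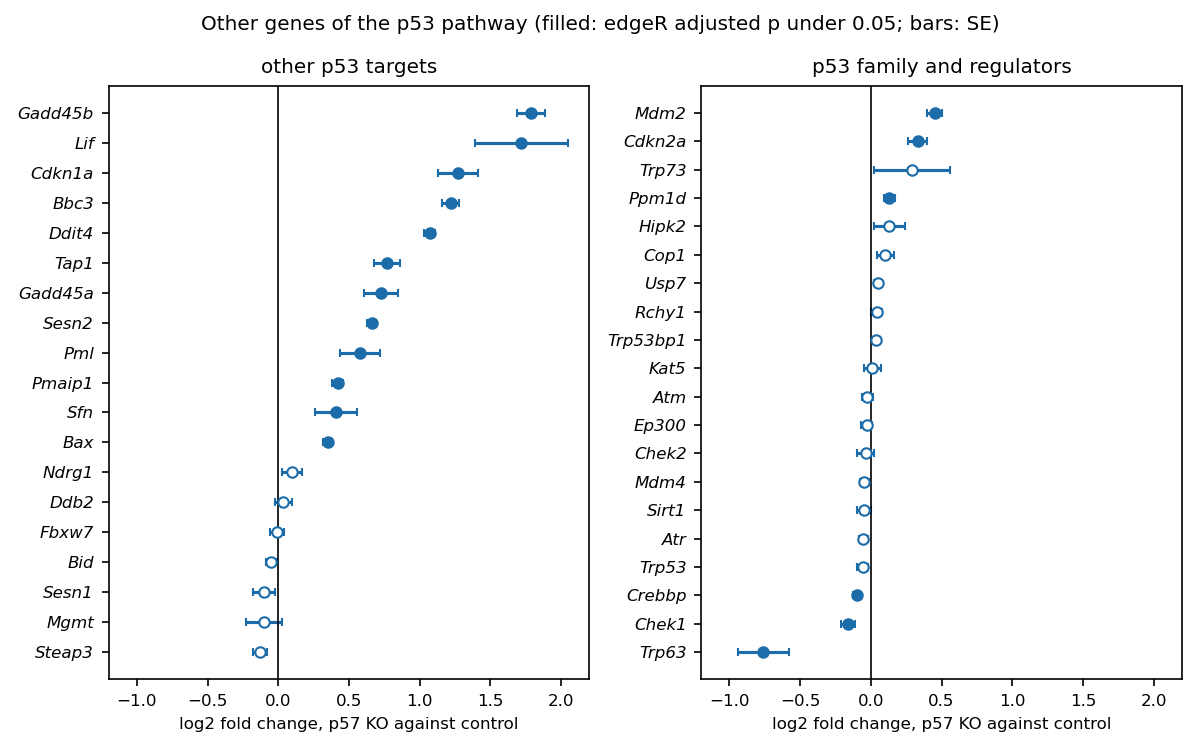
Log2 fold change (x axes, p57 KO against control, bars for the SE) of 19 other p53 targets (left) and of 20 members of the p53 family and its regulators (right). Filled points passed edgeR's test. The targets reach 1.79 (Gadd45b), whereas the regulators lie between -0.76 (Trp63) and 0.45 (Mdm2).

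Interferon response genes also rose: 11 of 13 tested and 0 fell, and their median log2 fold change was 0.88. With the fibroblast score 3 of the 13 rose (Ifit3, Bst2 and Cxcl10), and the median was 0.38. Their part in the rise of the p53 targets was not tested. At an unadjusted p under 0.05 in edgeR, 1 of the further p53 targets (Steap3), 1 gene of the integrated stress response (Asns), 0 G2/M genes and 0 interferon response genes were lower, and 0 genes of these 4 lists fell in DESeq2 or limma-voom.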

How the data were processed

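The authors deposited raw counts per gene, 1 column per library, without normalization. Per the submitters' processing notes, the build was mm10 and the tools included HISAT2 2.2.1, HTSeq 2.0.2, cutadapt 3.4 and bcl2fastq 2.20. The sources used here give no annotation, strand setting or handling of multiply matching reads. From the counts, edgeR 4.0.16 (limma 3.58.1, R 4.3.3) was run on 3 p57 KO and 3 control libraries: filterByExpr, TMM, robust quasi-likelihood F-test with the group as only term, Benjamini-Hochberg adjustment over 14814 genes. The test was tried on simulated counts. Positions, overlaps and exon lengths come from GENCODE M21 (release 21, mm10), promoters from RefSeq (GRCm38.p6).

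All 31 targets are named, with Cdkn1c, the members of 2 pathway lists that passed, and up to 6 members of other lists. Members and lists were chosen with earlier results of these data known. The alternatives were DESeq2 1.42.0, limma-voom, RLE scaling, a filter of 1 CPM in 3 libraries or none, a replicate block, a fold of 1.2, the fibroblast score as covariate, and each library left out. Replicate pairs differed by more than sampling noise (chi-square per degree of freedom 1.69 to 5.97).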

Additional observations from a re-analysis of the deposited data

How the results depend on the processing

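The count of p53 targets that rose, 25 of 31, was 24 to 25 with RLE size factors, DESeq2, limma-voom, no filter and the filter of 1 CPM in 3 libraries, and 23 to 26 in the edgeR fits that left out a library, with 0 that fell in each. Against a fold of 1.2 it was 12, and with the fibroblast score as covariate 11. Over all genes 1725 rose and 1725 fell. These counts were 1180 to 2136 and 1178 to 1893 when a library was left out, 414 and 55 against a fold of 1.2, and 245 and 161 with the fibroblast score, and 1044 fell in DESeq2. The cause was not tested. With the score the log2 fold change changed sign for 2 of the 31 targets, Tigar (0.022) and Dram1 (-0.43), for 3 of 19 further targets, Mgmt (0.13), Fbxw7 (0.069) and Pml (-0.055), and for 9 of 20 regulators, Cdkn2a (-0.006), Crebbp (0.011), Atm (0.06), Atr (0.031), Chek2 (0.036), Mdm4 (0.049), Ep300 (0.081), Kat5 (-0.067) and Trp73 (-0.0053). None of these passed with the score (adjusted p from 0.603 to 0.999). It did so too for 5 of 14 G2/M genes, 2 of 15 immediate early genes, 1 of 12 stress response genes and 2 of 13 interferon response genes. Among the 12 markers of undifferentiated spermatogonia 4 fell with the score, 7 were lower at an unadjusted p under 0.05 in edgeR, and 0 changed sign.

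Same-numbered libraries did not deviate together (correlation of deviations from the group means over 14814 genes 0.191, 0.025 and -0.102). With 3 libraries per group this cannot settle whether the numbers pair the libraries. The main model treated them as unpaired. With the replicate block 25 targets rose, 1934 genes rose and 1772 fell, and no call among the 31 changed. Gdf15, Fas and Dram1 had under 100 counts in every library, which limits the precision of their fold changes.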
